A study of Mus musculus with 33 samples.

Results

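The comparison sets 3 liver tumours driven by a MYC transgene against 7 wild-type livers taken 4 days after 4-hydroxytamoxifen (4-OHT), the drug that switches on the Cre recombinase used in the series. These 10 libraries were picked by their titles alone from the 33 of the series, a bulk RNA-seq study of MYC and β-catenin in mouse liver and liver cancer. The tumours are primary nodules of C57BL/6 mice of the genotype Albeta-CreERT2/R26-lslMYC. A tamoxifen-dependent Cre made in albumin-expressing cells removes a stop cassette in front of a MYC transgene at the Rosa26 locus of such mice, and no treatment, dose or age is given for the nodules. The livers come from C57BL/6 mice that carry the label WT and received 4-OHT into the peritoneum. Whether these mice also carry the Cre gene is not given in the sources used here. Nodule and whole liver, and transgene and wild type, differ between the 2 groups, and drug history and age may differ as well. The parts of these in a difference cannot be told apart. Of the 21671 genes in the table, 11322 reached an RPKM of 1 in at least 3 of the 10 libraries and were tested.

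MYC is a transcription factor that pairs with MAX, binds the E-box CACGTG and related sites, and drives ribosome production, nucleotide synthesis and entry into the cell cycle. β-catenin is the transcriptional arm of the Wnt pathway, and in normal liver it keeps the hepatocytes around the central vein in a state marked by glutamine synthetase. The fetal liver expresses imprinted growth genes such as Igf2 and H19, which are shut down after birth and often come back in liver cancer, while drug-metabolising enzymes, bile acid transporters and plasma proteins mark the adult hepatocyte.

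All values below are levels in rescaled RPKM (reads per kilobase of gene, scaled to library size, with each library divided by its median ratio to the gene-wise geometric mean), and all changes are tumour minus liver differences of log2(RPKM + 1). The added 1 makes the change of a weakly expressed gene smaller than the ratio of its levels. A gene is called where the Benjamini-Hochberg adjusted p of limma's two-sided test across all genes was under 0.05, and "rose" and "fell" are kept for called genes. Reads in genes ran from 6672729 to 9822520 in the tumours and from 6647833 to 8588207 in the livers. Xist and the Y-linked genes mark all 3 tumours as male, and 4 of the 7 livers as male and 3 as female. The titles number the samples singly, but nothing states that each is a separate animal, so the p-values measure only the spread between these libraries. The highest values are held down in the table. The highest RPKM of a library times its relative read total lay between 67.5 and 75.8 in all 10, and Alb, the gene for albumin, had between 3123 and 3196 reads in every liver whatever the depth. Differences among genes near that level are therefore smaller in the table than they may have been in the tissue, and 487 tested genes reached at least 50% of the highest RPKM in 1 of the groups. The highest RPKM was 67.5, 42.9 and 45.3 in tumours 1, 2 and 3, at relative read totals of 1.00, 1.63 and 1.55. Values of abundant genes thus also run lower where the read total is higher.

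The level of Myc itself did not separate the groups. Its RPKM was 1.41, 2.09 and 1.63 in tumours 1, 2 and 3, and between 1.05 and 2.43 in the livers with a median of 1.77. The tumour values lay inside the liver range, with a change of 0.01 ± 0.161 (SE; adjusted p = 0.960). The row holds reads assigned to the mouse gene, the species of the transgene is not given in the sources used here, and so the row does not check the label. Ctnnb1, which encodes β-catenin, had 29.2, 21.5 and 21.0 in the tumours and 22.5 to 26.5 in the livers, and was not called.

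A large part of the transcriptome differed. Of the genes tested, 47.5% were called: 2865 rose (25.3%) and 2509 fell (22.2%) in the tumours. The number with at least a 2-fold change was 1173, of which 565 rose and 608 fell. The libraries of the groups did not overlap for 20.2% of genes with the tumours higher and for 16% with the tumours lower. The median change over all tested genes was 0.00 after rescaling and 0.17 on the deposited RPKM, where 71.7% of the calls were rises against 53.3% after rescaling. Against the 4 male livers alone, 17.5% of 11089 genes rose and 15.2% fell. In the authors' deposited table of this comparison 3787 genes were higher and 3135 lower. Of the refit's calls, 5189 are also called in the authors' deposited table, and each of these has the same direction there.

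The largest rises were in the imprinted pair Igf2 and H19, in enzymes of serine and asparagine synthesis, and in a few genes that were nearly silent in the livers. Igf2, which encodes the growth factor IGF-II, had 40.6, 32.8 and 33.8 in tumours 1, 2 and 3, against 0.0272 to 0.133 (median 0.0772) in the livers. H19, a non-coding RNA of the same imprinted cluster, had 60.2, 38.3 and 38.8 against 0.0269 to 1.64 (median 0.288). Every tumour stood far above every liver for both genes, with changes of 5.09 ± 0.0899 (adjusted p = 3.28e-11) for Igf2 and 5.03 ± 0.263 (adjusted p = 7.34e-07) for H19. In reads, Igf2 went from 4 to 18 in a liver to between 4512 and 6174 in a tumour, and H19 from 2 to 146 to between 4132 and 4371. Both sit at or near the highest value of the tumour libraries, so these changes may be understated.

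Phgdh, which starts serine synthesis from a glycolytic intermediate, had 27.1, 20.0 and 20.5 in the tumours and at most 0.37 in the livers, a change of 4.2 ± 0.117 (adjusted p = 2.72e-09). Psat1, the next enzyme, had 8.74, 18.5 and 17.8 against 0.498 to 1.75 (median 0.819). Psph, which completes serine synthesis and was chosen after its values were seen, had 2.85, 6.71 and 6.77 against 1.77 to 2.61 (median 2.13). All 3 steps of the pathway were thus higher in each tumour than in any liver, with changes of 3.04 for Psat1 and 0.98 for Psph, and tumour 1 was the lowest tumour at the last 2 steps. Asns, asparagine synthetase, had 21.5, 16.4 and 18.3 in the tumours and 0.215 to 1.83 (median 0.355) in the livers, a rise of 3.72 ± 0.228 (adjusted p = 2.36e-06). Slc39a5, a zinc importer, had 20.0, 17.4 and 18.9 against 0.263 to 2.14 (median 0.398) and rose by 3.63.

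Bex2 and Dusp9 also rose, but unevenly among the tumours. Bex2, a small brain-expressed X-linked gene, had 2.41, 18.2 and 19 in the tumours and at most 0.16 in the livers, a change of 3.38 ± 0.431 (adjusted p = 1.43e-04). Dusp9, a phosphatase of MAP kinases, had 3.53, 14.8 and 9.69 against at most 0.0836, a change of 3.13 ± 0.279 (adjusted p = 1.63e-05). For both genes tumour 1 was the lowest of the tumours and still above all livers.

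The largest falls were in Slc34a2 and in cytochrome P450 genes. Slc34a2, a sodium-dependent phosphate transporter, had 0, 0.0293 and 0.00956 in the tumours and 14.6 to 37.3 (median 18.0) in the livers. In reads, it went from between 2014 and 4994 in a liver to 0, 6 and 2 in tumours 1, 2 and 3. The gene was thus close to absent in all 3 tumours, with a change of -4.49 ± 0.280 (adjusted p = 2.36e-06). Ces1f, a carboxylesterase that hydrolyses lipids and drugs, had 3.3, 3.14 and 0.424 against 19.9 to 30.6 (median 25.9), a change of -3.16.

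**Figure D1:**
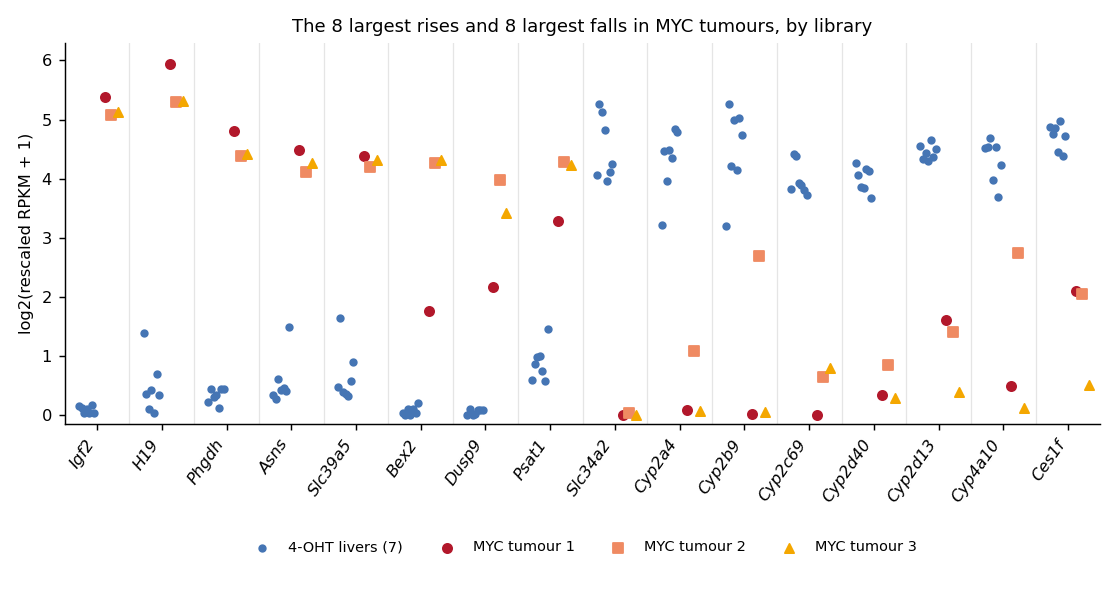
Levels, drawn as log2(rescaled RPKM + 1), of the genes that rose most (8, left) and fell most (8, right) without overlap of the groups, with 1 point per library for the 3 MYC tumours and the 7 4-OHT livers. Igf2 and H19 have 32.8 to 60.2 rescaled RPKM in the tumours and at most 1.64 in the livers, while Slc34a2 lies at or below 0.0293 in the tumours and at or above 14.6 in the livers.

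Beyond Igf2 and H19, the imprinted and fetal genes divided the tumours: tumours 2 and 3 expressed a set that tumour 1 did not. The imprinted list holds 14 growth genes, of which 7 passed the expression filter. Among these 5 rose, namely Igf2 and H19 themselves with Grb10, Peg3 and Cdkn1c (71.4%, where 25.3% of all tested genes rose), and none fell. Without tumour 2 the number that rose was 3. Their median difference from the liver mean was 0.47 in tumour 1, 2.87 in tumour 2 and 2.57 in tumour 3. Counts over genes that passed the filter describe those genes alone, since a gene silent in liver passes through its tumour values.

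Grb10, an adaptor that restrains insulin and IGF signalling, had 2.02, 19.9 and 17.5 in tumours 1, 2 and 3 and 1.25 to 2.06 (median 1.53) in the livers. Peg3, a paternally expressed zinc-finger gene, had 3.04, 15.2 and 11.9 against 1.28 to 1.74 (median 1.54). Tumour 1 lay within the liver range for Grb10 and above it for Peg3, and both genes rose, by 2.05 ± 0.464 (adjusted p = 0.00414) and 1.93 ± 0.324 (adjusted p = 7.26e-04). Cdkn1c, the maternally expressed cell cycle inhibitor p57, had 0.137, 12 and 9.59 against 0.526 to 1.59 (median 0.551). Here tumour 1 was below every liver, and the change of 1.60 (adjusted p = 0.0428) became 2.72 without tumour 1. The call for Cdkn1c was lost without liver 1, 3, 4, 5, 6 or 7, with adjusted p of up to 0.0667, and without liver 2, tumour 2 or tumour 3 the gene did not pass the expression filter and was not tested. The changes of Mest and Igf2r, at 0.26 and 0.28, were not called.

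The 7 imprinted genes that were too low for the test included several that were on in only some tumours. Peg10, a retrotransposon-derived imprinted gene, had 0.23, 15.6 and 17.7 in tumours 1, 2 and 3 and at most 0.574 in the livers. The neighbouring genes Dlk1, Meg3 and Rian, of the imprinted Dlk1 cluster, followed the same order. Rian had 0.237, 6.52 and 5.76 against at most 0.431, Meg3 had 0.0508, 2.45 and 1.86 against at most 0.188, and Dlk1 had 0, 1.71 and 1.18 against at most 0.00612. For these 4 genes tumours 2 and 3 lay above every liver and tumour 1 did not. Zim1 stayed at or below 0.511, Plagl1 at or below 0.502 and Ndn at or below 0.464 in all 10 libraries.

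Of 15 oncofetal and fetal liver genes, 5 were tested, 3 rose (60%, against 25.3% of all tested genes) and none fell, with a median change of 2.27. Scd2, a fatty acid desaturase of the fetal liver, had 21.6, 25.1 and 27.0 in the tumours against 1.96 to 4.45 (median 2.88), a rise of 2.70 ± 0.175 (adjusted p = 2.60e-06). Igf2bp3, an RNA-binding protein that attaches to the Igf2 messenger, had 9.18, 7.53 and 7.27 against 0.656 to 1.24 (median 0.797), a rise of 2.27 ± 0.112 (adjusted p = 4.91e-07). These 2 genes were high in all 3 tumours, unlike the other members. Afp, the gene for α-fetoprotein, had 1.79, 27.3 and 28.7 against 0.855 to 3.05 (median 1.54). Tumour 1 was within the liver range, and the change of 2.28 (adjusted p = 0.00997) was 1.73 (adjusted p = 0.0557) without tumour 2, 1.69 (adjusted p = 0.0635) without tumour 3 and 3.41 without tumour 1.

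Among the untested fetal genes, Bex1 had 0.352, 20.1 and 19.7 in tumours 1, 2 and 3 and at most 0.203 in the livers. Spink3, a trypsin inhibitor, had 0, 11.4 and 11.3 against at most 0.282, and Gpc3, a cell surface proteoglycan used as a marker of liver cancer, had 0.52, 3.5 and 9.91 against 0.173 to 0.523. Tumours 2 and 3 were thus high for all of these, while tumour 1 was at liver level for Spink3 and Gpc3. Lin28b, which blocks the maturation of let-7 microRNAs, had 0.555, 0.325 and 1.88 and was at most 0.00415 in the livers, so that all 3 tumours were above all livers at a low level.

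**Figure D2:**
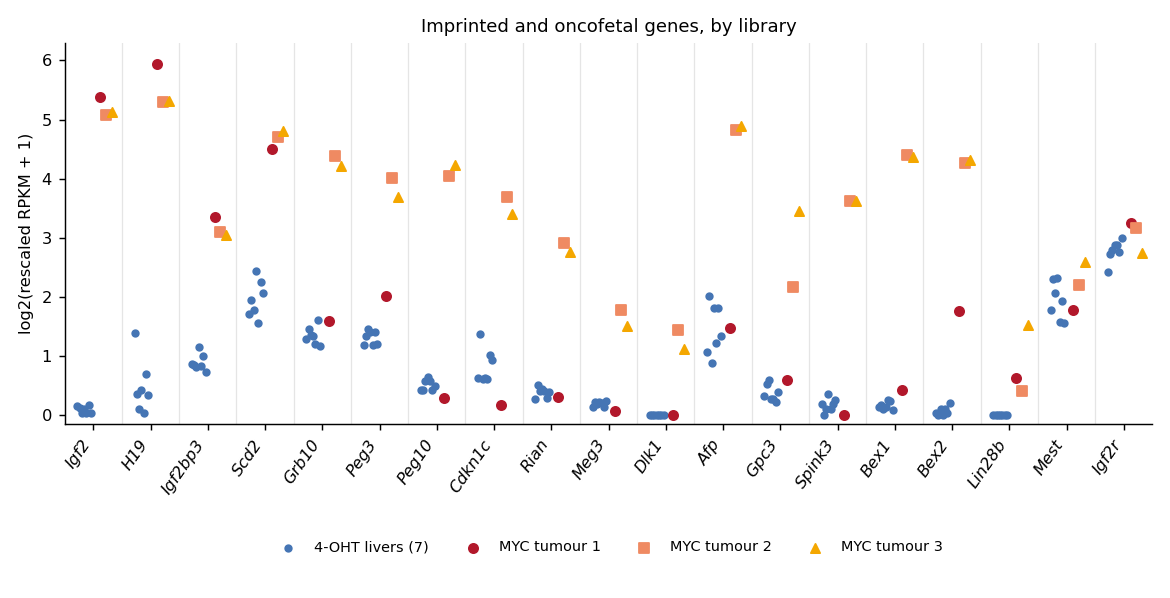
Levels, drawn as log2(rescaled RPKM + 1), of imprinted and oncofetal genes, with 1 marker for each of MYC tumours 1, 2 and 3 and 1 point for each of the 7 4-OHT livers. Igf2, H19, Scd2 and Igf2bp3 are high in all 3 tumours, while Grb10, Afp, Peg10, Bex1 and Spink3 are high in tumours 2 and 3 and at or near the liver level in tumour 1.

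The machinery that makes ribosomes rose as a block. All 30 ribosome biogenesis factors of the list rose, against 25.3% of all tested genes, with a median change of 1.11 and a range from 0.42 to 1.72. The counts were 29, 30 and 30 when tumours 1, 2 and 3 were left out in turn. Nle1, needed for maturation of the large subunit, had 8.35, 3.27 and 7.19 in the tumours and 0.892 to 1.39 (median 1.1) in the livers. Ncl, the abundant nucleolar protein nucleolin, had 17.6, 14.1 and 15.5 against 4.13 to 6.17 (median 5.23). No tumour overlapped with a liver for either gene, and the changes were 1.72 ± 0.198 (adjusted p = 7.58e-05) and 1.44 ± 0.124 (adjusted p = 1.28e-05). Dkc1 and Gar1, which belong to the pseudouridylation complex, rose by 1.53 and 1.45, Polr1b, a subunit of RNA polymerase I, by 1.45, and Nop2, an rRNA methyltransferase, by 1.30.

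The E-box CACGTG, which reads the same on both strands, was searched in promoter windows of 300 bases, from 250 before to 50 after the start of each gene, taken from RefSeq on GRCm38.p6. The windows of Nle1 and Nop2 are shown because these 2 genes had the largest changes among the ribosome biogenesis genes with the motif in their window. The motif is in capitals. The first lies on the minus strand at chr11:82908346-82908645 with the motif 23 bases after the start, and the second on the plus strand at chr6:125131633-125131932 with the motif 60 bases before it.
Nle1: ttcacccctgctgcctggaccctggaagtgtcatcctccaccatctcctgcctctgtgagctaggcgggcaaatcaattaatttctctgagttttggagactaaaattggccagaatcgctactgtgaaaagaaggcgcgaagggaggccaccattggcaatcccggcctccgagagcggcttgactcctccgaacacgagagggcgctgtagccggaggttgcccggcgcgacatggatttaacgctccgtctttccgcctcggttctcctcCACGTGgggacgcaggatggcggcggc
Nop2: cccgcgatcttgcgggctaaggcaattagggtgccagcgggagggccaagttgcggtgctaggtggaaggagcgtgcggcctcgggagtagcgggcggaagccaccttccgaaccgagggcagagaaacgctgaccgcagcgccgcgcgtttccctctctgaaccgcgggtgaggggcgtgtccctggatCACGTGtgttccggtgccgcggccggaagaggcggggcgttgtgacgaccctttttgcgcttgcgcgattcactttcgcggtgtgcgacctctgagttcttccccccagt
Of the 30 ribosome biogenesis genes, 25 matched a window, and 4 of these (16%) hold the motif. The share was 14% among genes that rose, 12.2% among genes not called and 9.33% among genes that fell, over the 8495 tested genes that matched, and 7.15% over all 32851 windows of the table. None of the 32 cytochrome P450 windows holds these letters. A match is a description of the window and no sign of binding, and a motif outside the window was not looked for.

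Polyamines are growth-promoting amines made from ornithine, and 3 enzymes of their synthesis were higher in every tumour. Odc1, which makes putrescine, had 19.8, 19.5 and 24.3 in the tumours against 8.23 to 15.9 (median 12.9). Srm, spermidine synthase, had 25.2, 19.4 and 26 against 5.18 to 12.5 (median 8.9). Sms, spermine synthase, had 1.83, 3.07 and 4.47 against 0.974 to 1.44 (median 1.21). The tumours were above all livers for these 3 steps, with rises of 0.70, 1.4 and 0.85. Over the 13 genes of the list 6 rose (46.2%, against 25.3% of all tested genes) and 2 fell (15.4%, against 22.2%). Without tumour 3 the counts were 3 (23.1%, against 18.2%) and 0. The falls were in Paox and Agmat, and the list members Azin1, Oaz1, Oaz2, Sat1 and Smox were not called.

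The MAX network that MYC works in moved little at the RNA level. Of 13 tested members 2 rose and 2 fell (15.4% each, against 25.3% and 22.2% of all tested genes), with a median of 0.19. Without tumour 1 there were 4 of each (30.8%, against 24.9% and 26.6%). Mxi1, which encodes a partner of MAX that opposes MYC, had 3.59, 2.98 and 3.61 in the tumours against 1.73 to 2.44 (median 2.15), a rise of 0.52 ± 0.0987 (adjusted p = 0.00145). Mlxipl, the carbohydrate-responsive factor ChREBP, had 10.9, 8.1 and 7.7 against 15.4 to 17.9 (median 16.9), a fall of -0.86 ± 0.103 (adjusted p = 1.03e-04). Neither gene overlapped between the groups. The other 2 calls, Max (0.47) and Mycl (-0.54), were lost without tumour 3, with adjusted p of 0.0826 and 0.0972, and for Mycl also without tumour 2, at 0.113.

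Enzymes that make nucleotides rose, among them those of pyrimidine and folate metabolism. Of 30 genes 24 rose (80%, against 25.3% of all tested genes) and none fell, with a median of 1.02. Uck2, which salvages uridine and cytidine, had 12.2, 9.34 and 15.2 in the tumours against 1.52 to 2.93 (median 2.38). Ctps, CTP synthase, had 6.88, 5.91 and 9.27 against 0.927 to 2.28 (median 1.44). The groups did not overlap, and the rises were 1.99 ± 0.157 (adjusted p = 7.31e-06) and 1.78 ± 0.176 (adjusted p = 3.05e-05). The mitochondrial folate enzymes Mthfd1l and Mthfd2 rose by 1.73 and 1.68, and both were lowest in tumour 1, with 1.99 and 1.69. The 6 members without a call included Paics, Shmt1 and Shmt2.

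Among 21 aminoacyl-tRNA synthetases, which load tRNAs with their amino acids, 14 rose (66.7%, against 25.3% of all tested genes). Only 1 fell (4.76%, against 22.2%), and the median was 0.52. Vars, for valine, had 14.7, 13.8 and 17.2 in the tumours against 4.59 to 8.02 (median 5.69), a rise of 1.20 ± 0.164 (adjusted p = 2.11e-04). Lars, for leucine, rose by 0.92. Aars, for alanine, was the member that fell: it had 7.67, 8.55 and 8.35 against 13.4 to 16.6 (median 16), a change of -0.83 ± 0.0878 (adjusted p = 4.53e-05). All 3 tumours were below all livers for Aars and above all livers for Vars.

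Genes of DNA replication and mitosis rose, all but 1 tested gene of each list. Of 29 tested replication genes 28 rose (96.6%, against 25.3% of all tested genes), with a median of 1.13, and Mcm10 was not called. Of 29 tested genes of G2 and mitosis 28 rose (96.6%, against 25.3%), with a median of 1.4, and Kif23 was not called. Prim1, the primase that starts DNA strands, had 6.8, 8.68 and 10.0 in the tumours against 1.23 to 2.36 (median 1.91). Bub1, a kinase of the spindle checkpoint, had 2.16, 5.18 and 6.04 against 0.207 to 0.841 (median 0.559). Every tumour was above every liver, with changes of 1.81 ± 0.159 (adjusted p = 1.50e-05) and 1.77 ± 0.232 (adjusted p = 1.64e-04), and tumour 1 was the lowest tumour for both. Mki67, the proliferation antigen Ki-67, had 11.6, 22.5 and 18.6 against 4.54 to 9.97 (median 5.85), a rise of 1.19. The median difference from the liver mean over the mitotic genes was 0.95, 1.48 and 1.55 in tumours 1, 2 and 3, and ran from -0.52 to 0.40 among the livers.

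Of 18 tested G1 regulators 10 rose (55.6%, against 25.3% of all tested genes) and 3 fell (16.7%, against 22.2%). Ccne1, cyclin E1, had 4.83, 9.54 and 11.4 in the tumours against 0.635 to 3.54 (median 0.928), a rise of 1.99 ± 0.328 (adjusted p = 6.40e-04). Cdk4, the partner of cyclin D, had 25.0, 22.0 and 26.6 against 12.4 to 13.9 (median 12.9), a rise of 0.86 ± 0.0834 (adjusted p = 2.65e-05). Ccnd1, cyclin D1, moved the other way, with 1.95, 2.55 and 11.0 against 8.37 to 14.6 (median 12.6), a change of -1.37 (adjusted p = 0.00811). Tumours 1 and 2 were below all livers for Ccnd1 while tumour 3 lay among them.

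Among 19 tested genes of the p53 response 7 rose (36.8%, against 25.3% of all tested genes) and 2 fell (10.5%, against 22.2%). Without tumour 3, 4 of 18 rose (22.2%, against 18.2%). With only the livers numbered S14 in their titles 3 of 19 rose (15.8%, against 18.6%). Against the male livers alone 3 of 19 rose, where 17.5% of all tested genes did. Trp53 itself had 12.3, 8.99 and 11.9 in the tumours against 4.2 to 5.95 (median 5.62), a rise of 0.94 ± 0.123 (adjusted p = 1.59e-04). Gtse1, a mitotic regulator of p53, rose by 1.25, and the death receptor gene Fas fell by 0.76. Cdkn1a, the classical p53 target p21, had 8.0, 6.21 and 6.15 against 1.49 to 7.7 (median 3.05), and its change of 0.82 was not called (adjusted p = 0.0584). Of 17 tested DNA methylation and Polycomb genes 7 rose (41.2%, against 25.3% of all tested genes) and none fell. Uhrf1, which brings the maintenance methyltransferase to replicating DNA, had 3.65, 11.3 and 11.2 against 1.21 to 3.0 (median 1.85), and Dnmt3b had 2.41, 2.87 and 4.1 against 0.367 to 1.43 (median 0.826). No tumour overlapped with a liver for these 2 genes, which rose by 1.58 and 1.12.

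The phosphate transporter list, which holds Slc34a2 itself, had more falls than rises. Of 8 tested members 6 fell (75%, against 22.2% of all tested genes) and 2 rose (25%, against 25.3%). The falls were in Slc34a2, in Xpr1 and in Slc17a1, Slc17a2, Slc17a3 and Slc17a4. Slc17a3, an organic anion and phosphate carrier, had 1.5, 1.33 and 1.06 in the tumours against 4.76 to 7.85 (median 5.7), a fall of -1.59 ± 0.127 (adjusted p = 8.06e-06). Xpr1, the phosphate exporter, had 1.88, 2.94 and 2.61 against 3.46 to 4.7 (median 4.26) and fell by 0.58. The 2 rises, in Slc20a1 and Slc20a2, came to 0.65 and 0.21. Without tumour 1 neither was called, with adjusted p of 0.0577 and 0.0921. Slc20a1 was also not called without tumour 2 (adjusted p = 0.0968), nor Slc20a2 without tumour 3 or without any 1 liver, with 0.114 as the highest p. The other members of the Slc34 family were near 0 in both groups, with at most 0.0226 for Slc34a1 and 0.0352 for Slc34a3.

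Drug-metabolising cytochrome P450 genes, which oxidise drugs, steroids and fatty acids in the adult liver, had the lowest median of the lists. Of 35 tested genes 28 fell (80%, against 22.2% of all tested genes), none rose, and the median was -1.67. Without tumour 3 a single gene rose. Cyp2c69 had 0, 0.57 and 0.748 in the tumours against 12.3 to 20.5 (median 13.8), and Cyp2d40 had 0.277, 0.797 and 0.232 against 11.8 to 18.3 (median 15.7). Each tumour was far below the lowest liver for both, with changes of -3.52 ± 0.199 (adjusted p = 1.37e-06) and -3.50 ± 0.152 (adjusted p = 1.56e-07). Cyp2d13, with a change of -3.31, had 2.05, 1.66 and 0.322 against 18.6 to 24.1. Many of these genes lie in clusters of near-identical copies, and how reads were shared among the copies is not given in the sources used here, so single members are uncertain. The count of falls was 30, 27 and 25 without tumours 1, 2 and 3.

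Several of the lowest P450 genes are expressed more in female than in male livers, and all 3 tumours were male. Cyp2a4 had 0.0667, 1.14 and 0.0541 in the tumours, between 8.31 and 26.6 in the 4 male livers and between 21.1 and 27.6 in the 3 female livers. Cyp2b9 had 0.0203, 5.47 and 0.0371, between 8.24 and 25.8 in male livers and between 30.7 and 37.2 in female livers. Both were lower in each tumour than in any male liver, with changes against male livers alone of -3.70 (adjusted p = 9.45e-04) and -3.19 (adjusted p = 0.00916). Of 13 tested male-biased liver genes 4 fell against all livers (30.8%, against 22.2% of all tested genes). Against the male livers alone 7 of 13 fell, where 15.2% of all tested genes did. None rose in either comparison. Of 16 tested female-biased genes 7 fell against all livers (43.8%, against 22.2%) and 1 rose (6.25%, against 25.3%). Against the male livers alone 9 were tested, of which 5 fell and 1 rose, where 15.2% and 17.5% of all tested genes did. The rise was in Hao2, a peroxisomal oxidase of hydroxy acids, which had 1.19, 5.19 and 4.02 in the tumours, at most 0.254 in male livers and up to 1.93 in female livers.

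Targets of β-catenin in the liver fell in all 3 tumours. Of 15 tested targets 13 fell (86.7%, against 22.2% of all tested genes) and none rose, with a median of -1.25. Znrf3 and Rgn were not called. Rhbg, an ammonium transporter of the cells around the central vein, had 0.113, 1.01 and 0.0685 in the tumours against 3.29 to 6.69 (median 4.35). Notum, a secreted inhibitor of Wnt proteins, had 0.45, 1.75 and 0.208 against 8.21 to 10.8 (median 9.87). Both showed no overlap, with changes of -2.03 ± 0.217 (adjusted p = 5.09e-05) and -2.66 ± 0.203 (adjusted p = 6.10e-06).

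Other targets were also below the livers in each tumour, and tumour 2 was the closest to them. Slc1a2, a glutamate transporter, had 0.395, 3.9 and 0.0904 against 10.6 to 16.8 (median 12.1), and Lect2, a secreted hepatocyte protein, had 1.51, 7.58 and 2.49 against 18.2 to 27.6 (median 21.5). Their changes were -2.81 and -2.39. Axin2, a feedback inhibitor of the pathway, had 0.302, 0.609 and 0.0811 against 0.784 to 1.84 (median 1.51), a fall of -0.87 ± 0.169 (adjusted p = 0.00166). Tbx3, a transcription factor downstream of β-catenin, fell by 1.4. Lgr5, which was too low for the test, had 0.0644, 0.229 and 0.0336 against 0.506 to 0.765.

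Glutamine and ammonia metabolism had single genes that fell. Glul, glutamine synthetase and a β-catenin target, had 12.5, 24.6 and 11.9 in the tumours against 33.5 to 43.5 (median 37.8), a fall of -1.25 ± 0.190 (adjusted p = 3.91e-04). The groups did not overlap. Oat, which turns ornithine into a precursor of glutamate, fell by 1.22. Of the 12 genes for the urea cycle and ammonia handling 1 rose (8.33%, against 25.3% of all tested genes) and 4 fell (33.3%, against 22.2%). The number that fell was 9 without tumour 1 (75% against 26.6%) and 3 without tumour 3 (25% against 16.8%). Cps1, the first enzyme of the urea cycle, had 39.4, 28.2 and 23.9 against 30.8 to 42.3 and was not called.

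Other genes of adult liver metabolism fell less, and mostly in tumours 2 and 3. Of 24 bile acid genes 12 fell, of 24 fatty acid oxidation genes 11, of 30 genes of amino acid breakdown 13 with 2 rises, of 16 lipogenic genes 11 with 1 rise, and of 22 cholesterol synthesis genes 13. The shares that fell were 50%, 45.8%, 43.3%, 68.8% and 59.1%, against 22.2% of all tested genes. The medians were -0.75, -0.35, -0.38, -0.50 and -0.44 in that order. For fatty acid oxidation the median difference from the liver mean was -0.01 in tumour 1, -0.56 in tumour 2 and -0.52 in tumour 3, against -0.16 to 0.15 in single livers. For bile acids it was 0.01, -0.70 and -1.77. Without tumour 1 the counts that fell were 22 for fatty acid oxidation, 20 for bile acids and 23 for amino acid breakdown. Without tumour 3 they were 6, 4 and 10, and without tumour 2 they were 7, 9 and 10. The bile acid share without tumour 3 was 16.7%, against 16.8% of all tested genes. With only the livers numbered S14 or S15 in their titles it was 12.5% and 8.33%, against 15.3% and 11.4%. Against male livers alone 3 of the 24 bile acid genes fell, where 15.2% of all tested genes did. The shares of the other lists stayed above those of all tested genes in these subsets. For lipogenesis 13, 6 and 6 genes fell without tumours 1, 2 and 3, and for cholesterol synthesis 14, 8 and 9. The counts of these lists thus rest on which tumours enter. In the order first given, 9, 7, 14, 6 and 4 genes of the lists reached 50% of the highest RPKM. Such values run lower at a higher read total, as in tumours 2 and 3, and the part of this was not tested.

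Some single genes of these pathways were low in all 3 tumours. Acacb, the acetyl-CoA carboxylase that controls fatty acid entry into mitochondria, had 0.299, 0.71 and 1.5 against 5.62 to 8.24 (median 6.18), a fall of -2.11 ± 0.180 (adjusted p = 1.23e-05). Ehhadh, of peroxisomal oxidation, had 15.8, 15 and 9.88 against 37.4 to 50 (median 41.6), a fall of -1.62 ± 0.146 (adjusted p = 1.73e-05). The fatty acid hydroxylases Cyp4a10 and Cyp4a14, which answer to the receptor PPARα, fell by 3.19 and 2.96, and tumour 2 was the highest tumour for both, with 5.74 and 12.3. Slc10a2, a bile acid importer, fell by 2.35, and Tm7sf2 and Cyp51 of cholesterol synthesis by 1.4 and 0.96.

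Sugar metabolism showed no common direction. Of 21 tested glycolysis genes 4 rose (19%, against 25.3% of all tested genes) and 2 fell (9.52%, against 22.2%), with a median of -0.01. Without tumour 1 the counts were 7 and 6, and without tumour 2 or tumour 3 they were 4 and 1. Pfkl, the liver phosphofructokinase, had 10.1, 9.43 and 14.2 against 5.16 to 6.06 (median 5.8), a rise of 0.85 ± 0.111 (adjusted p = 1.61e-04). Ldha and Gapdh were not called. Of 14 tested genes of gluconeogenesis and glycogen 6 fell (42.9%, against 22.2% of all tested genes) and 2 rose (14.3%, against 25.3%). Without tumour 1 there were 11 falls and 1 rise. Ppp1r3b, which directs a phosphatase to glycogen, had 11.5, 8.65 and 5.77 against 17.3 to 33.2 (median 28), a fall of -1.55 ± 0.214 (adjusted p = 2.23e-04). Pck2, the mitochondrial form of phosphoenolpyruvate carboxykinase, moved the other way, with 2.41, 3.37 and 4.37 against 1.11 to 1.67 (median 1.17), a rise of 0.90.

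Most genes of the complement and coagulation list, largely secreted plasma proteins, fell. Of 32 complement and coagulation genes 27 fell (84.4%, against 22.2% of all tested genes) and none rose, with a median of -0.62. The number was 32, 18 and 16 without tumours 1, 2 and 3. C6, of the membrane attack complex, had 0.761, 3.92 and 0.707 in the tumours against 7.35 to 17.7 (median 11.2). F11, coagulation factor XI, had 1.97, 6.03 and 1.74 against 13.8 to 18.5 (median 17.1). All tumours were below all livers for both, with changes of -2.39 ± 0.357 (adjusted p = 3.46e-04) and -2.20 ± 0.240 (adjusted p = 5.53e-05). Of 23 acute phase genes 11 fell (47.8%, against 22.2% of all tested genes) and 12 were not called. Tumour 1 was below every liver for 7 of the 23 and above every liver for 7 others. The number that fell was 17, 7 and 7 without tumours 1, 2 and 3. Apcs, serum amyloid P, fell by 1.51, and Saa1, a serum amyloid A gene with a near-identical neighbour, by 1.60. In this list 15 genes, and in the complement list 16, reached 50% of the highest RPKM, where differences are held down. Such values also run lower at a higher read total, as in tumours 2 and 3, and the part of this was not tested.

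Of 22 hepatocyte transcription factors 13 fell (59.1%, against 22.2% of all tested genes) and none rose, with a median of -0.53. Without tumours 1, 2 and 3 the number that fell was 13, 10 and 8. Onecut2, a factor of liver development, had 4.76, 3.39 and 2.92 in the tumours against 8.06 to 12.7 (median 11.8), a fall of -1.41 ± 0.147 (adjusted p = 4.29e-05). Hnf4a, the central regulator of hepatocyte identity, had 35.9, 23.5 and 20.9 against 30.1 to 39.6, and its change of -0.38 was not called (adjusted p = 0.0599). Tumours 2 and 3 were below all livers for Hnf4a while tumour 1 lay among them. Values of abundant genes run lower at a higher read total, as in tumours 2 and 3, and the part of this for Hnf4a was not tested. Of 17 tested YAP/TAZ targets 3 rose (17.6%, against 25.3% of all tested genes) and 7 fell (41.2%, against 22.2%). Ctgf, a matrix protein and classical target, had 3.33, 6.09 and 5.57 against 1.43 to 3.37 (median 2.13), a rise of 0.89 ± 0.221 (adjusted p = 0.00674), and Gadd45b, a stress-response gene, had 3.16, 6.7 and 3.69 against 0.684 to 1.87 (median 1.4), a rise of 1.19. Cyr61, the other classical target, had 3.55, 2.19 and 3.48 against 2.27 to 4.43. The co-activator genes Yap1 and Wwtr1 and the target Cyr61 were not called, with changes of 0.03, -0.13 and -0.11.

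**Figure D3:**
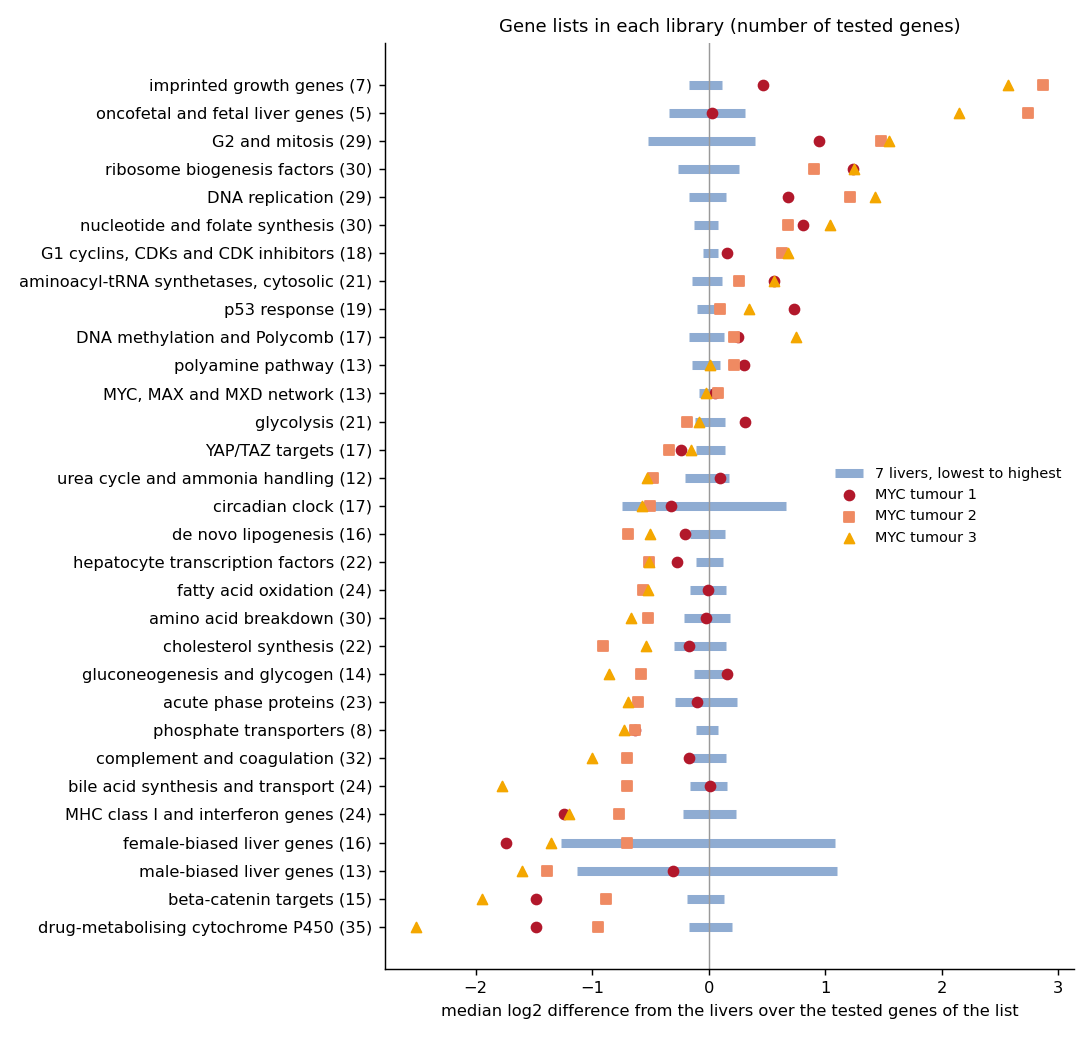
Median log2 difference from the liver mean over the tested genes of each list, with 1 marker for each of MYC tumours 1, 2 and 3 and a bar from the lowest to the highest of the 7 4-OHT livers. Proliferation and ribosome lists lie above 0 in all 3 tumours and P450 and β-catenin lists below 0 in all 3, while fatty acid oxidation lies at -0.01 in tumour 1 and at -0.56 and -0.52 in tumours 2 and 3.

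Antigen presentation and interferon genes fell. Of 24 genes 20 fell (83.3%, against 22.2% of all tested genes) and none rose, with a median of -1.04. Between 18 and 21 fell whichever tumour was left out. Irf7, a transcription factor that amplifies the interferon response, had 3.71, 10.9 and 5.97 in the tumours against 18.1 to 27.2 (median 23.8). Ifit3, an interferon-induced antiviral gene, had 1.7, 3.46 and 1.84 against 7.13 to 13.5 (median 8.69). Both were below all livers in each tumour, with changes of -1.76 ± 0.226 (adjusted p = 1.48e-04) and -1.70 ± 0.196 (adjusted p = 7.64e-05). Ifit1 and Gbp2 fell by 1.72 and 1.55. The markers of macrophages and endothelial cells, which also express these genes, were lower in the same 3 tumours, and their part in this result was not tested.

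In bulk tissue, fewer cells of a type and less RNA per cell cannot be told apart. The summed level of 13 macrophage markers was 132 ± 58.7 (SD, n = 3) in the tumours, with 73.5, 191 and 132 in tumours 1, 2 and 3, and 255 ± 26.4 (SD, n = 7) in the livers, where it ran from 215 to 285. The summed level of 13 endothelial markers was 44.7 ± 12.9 (47.9, 55.7 and 30.5) against 95.8 ± 13.1 (72.2 to 114). Both sums were below every liver in every tumour. The exact two-sided permutation p was 0.0167 for each, the smallest that 3 against 7 libraries allow, and 0.0667 after adjustment over the 8 marker lists. In the males alone, 3 against 4, no exact p under 0.0571 is possible.

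Kupffer cells are the resident macrophages of the liver, and their markers had the largest falls of the list. Of 13 macrophage markers 11 fell (84.6%, against 22.2% of all tested genes). With only the livers numbered S15 in their titles 4 fell (30.8%, against 11.4%). Clec4f had 1.4, 13.8 and 1.6 in the tumours against 22.6 to 31.9 (median 26.8), and Timd4 had 0.0526, 4.47 and 0.288 against 6.01 to 12 (median 7.66). All tumours were below all livers, tumour 2 least so, and the changes were -2.60 ± 0.442 (adjusted p = 7.63e-04) and -2.21 ± 0.414 (adjusted p = 0.00132). Vsig4 and Cd163 fell by 2.34 and 2.24, while the general macrophage genes Cd68 and Lyz2 were not called. Of 11 tested endothelial markers 10 fell (90.9%, against 22.2% of all tested genes), and 4 with the S15 livers alone (36.4%, against 11.4%). Stab1, a scavenger receptor of the sinusoids, had 4.03, 5.24 and 3.2 against 8.05 to 12.8 (median 10.9), a fall of -1.21 ± 0.146 (adjusted p = 1.07e-04). Pecam1, expressed by all endothelium, was not called.

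Stellate cell and fibroblast markers moved both ways, with 4 of 12 rising and 4 falling (33.3% each, against 25.3% and 22.2% of all tested genes). Without tumour 2 or tumour 3 there were 2 rises (18.2%, against 24.1% and 18.2%). Col1a1, a collagen of scar tissue, had 3.83, 5.15 and 12.6 in the tumours against 1.2 to 2.82 (median 1.67), and Acta2, smooth muscle actin, had 2.17, 2.77 and 5.64 against 0.389 to 0.904 (median 0.603). They rose by 1.42 and 1.41, with tumour 3 the highest for both. Reln, a marker of quiescent stellate cells, had 0.496, 1.81 and 0.253 against 3.73 to 4.89 (median 4.07) and fell by 1.57. The summed markers of this list were 33.1, 57.7 and 57.7 against 52.3 to 64.3.

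Markers of the labelled tissue were present. The sum of 11 hepatocyte markers was 510, 322 and 291 in tumours 1, 2 and 3 against 421 to 537 in the livers, so that tumour 1 lay within the liver range and the other 2 below it (exact permutation p = 0.1). Of these markers 10 reached 50% of the highest RPKM, where values run lower at a higher read total, as in tumours 2 and 3. The part of this in the sums was not tested. Neutrophil markers were high in tumours 2 and 3, with sums of 11.9, 135 and 59.3 against 11.4 to 40.4 (exact permutation p = 0.133), and erythroid markers in tumour 2, with 31.6, 91.7 and 32 against 38.3 to 56.7 (exact permutation p = 0.6). Cholangiocyte and progenitor markers summed to 7.85, 38.1 and 27.0 against 18.0 to 27.2 (exact permutation p = 0.917), and lymphocyte markers to 3.10, 15.2 and 7.91 against 8.4 to 18.7 (exact permutation p = 0.167). Mpo and Elane, made by neutrophil precursors, had 8.3 and 9.37 in tumour 2 and at most 0.369 and 0.682 in the livers. Slc4a1, of the red cell membrane, had 17.3 in tumour 2 and at most 0.894 in the livers. None of the 8 lists had a marker that was 0 in all 3 tumours. How far blood cell precursors in tumour 2 add to its proliferation genes was not tested.

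**Figure D4:**
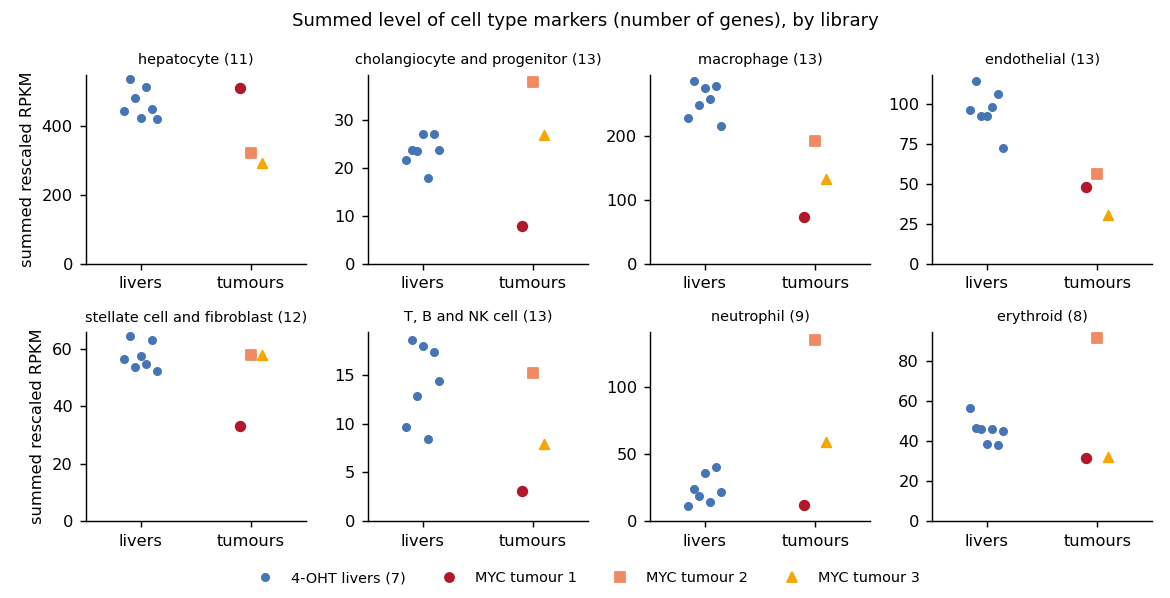
Summed level in rescaled RPKM of each marker list in the 3 MYC tumours and the 7 4-OHT livers, with 1 point per library. The macrophage and endothelial sums of every tumour (73.5 to 191 and 30.5 to 55.7) lie below those of every liver (215 to 285 and 72.2 to 114), and the neutrophil sum of tumour 2 (135) lies above the liver range (11.4 to 40.4).

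The tumours differed from one another more than the livers did. The median SD of a gene on the log2 scale was 0.253 over the 3 tumours and 0.147 over the 7 livers. The SD over genes of the difference between 2 libraries was 0.59, 0.66 and 0.46 for tumours 1 and 2, 1 and 3, and 2 and 3, against 0.24 to 0.41 for pairs of livers. The genes with the widest range over the tumours were mostly enzymes and transporters of the adult liver that were high in tumour 1 and close to absent in tumour 3. Inmt, a methyltransferase, had 36.8, 23.6 and 0.59 in tumours 1, 2 and 3 against 41.6 to 50.8 in the livers. Aox3, an aldehyde oxidase, had 29.2, 7.14 and 0.4 against 11.3 to 22.8, and Adh4, an alcohol dehydrogenase, had 27.7, 5.83 and 0.372 against 10.4 to 20.4. Fitm1, a lipid droplet protein, had 24.0, 0.755 and 0.127 against 3.75 to 9.63. Tumour 1 was thus above all livers for Aox3, Adh4 and Fitm1, while tumours 2 and 3 were below them. Cyp7b1, a male-biased enzyme of bile acid synthesis, had 23.3, 0.998 and 0.268 against 6.65 to 29.7. Pigr, which carries immunoglobulin A across cells, had 41.2, 12 and 1.13 against 31.2 to 38.6.

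Tumour 1 also differed by chromosome. For 10765 of the tested genes (95.1%) the symbol matched RefSeq's gene table of GRCm38.p6, which gives a chromosome. The median log2 difference of tumour 1 from the liver mean was 0.27 to 0.31 on each of chromosomes 2, 3, 9, 11, 15 and 16, and -0.10 to 0.02 on the other 13 autosomes and chromosome X. Of the 3667 genes on these 6 chromosomes 71.0% were above the liver mean in tumour 1, against 46.2% of the 7093 genes elsewhere. Tumours 2 and 3 ran from -0.11 to 0.11 on these 20 chromosomes, and single livers from -0.07 to 0.07. On the 6 chromosomes 30.3% of genes rose, and 25.2% without tumour 1. On the others the shares were 22.5% and 24.4%. The 6 chromosomes were picked after their values were seen, so no test is given, and a change in chromosome number was not measured. Myc lies on chromosome 15, Igf2 and H19 on chromosome 7.

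Tumour 3 was low for the Y-linked genes. Ddx3y had 19.7, 11.6 and 2.01 in tumours 1, 2 and 3 against 13.5 to 16.1 in the male livers. Eif2s3y had 18.2, 9.64 and 1.46 against 11.0 to 12, Kdm5d 4.46, 3.42 and 0.596 against 2.97 to 3.47, and Uty 5.88, 3.81 and 0.572 against 3.24 to 3.85. Tumour 3 was below every male liver for all 4 genes and tumour 1 was above every male liver. Over the 4 genes the median log2 difference from the male liver mean was 0.51, -0.07 and -1.93 in tumours 1, 2 and 3.

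**Figure D5:**
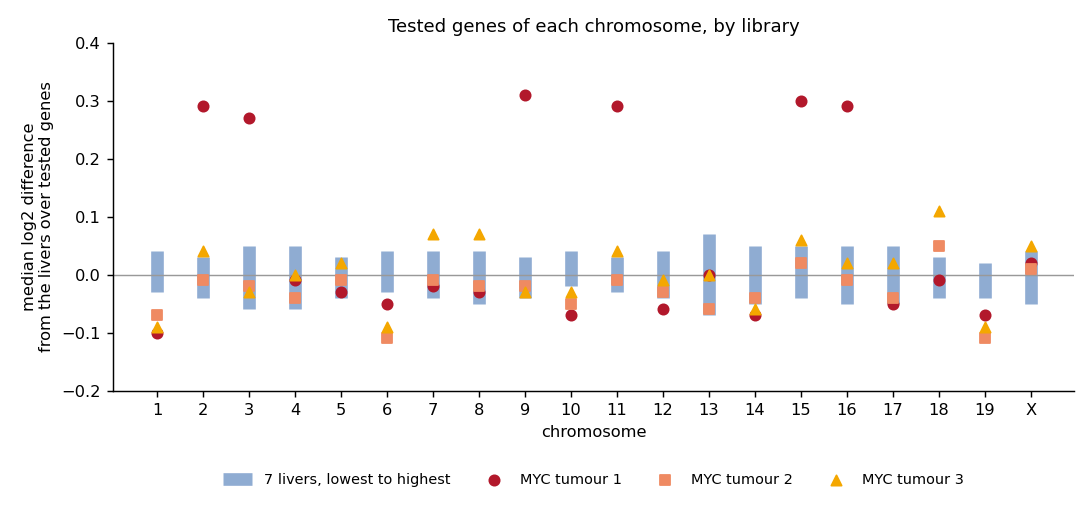
Median log2 difference from the liver mean over the tested genes of each chromosome in MYC tumours 1, 2 and 3 (markers), with a bar from the lowest to the highest of the 7 4-OHT livers, for the 19 autosomes and chromosome X. Tumour 1 lies at 0.27 to 0.31 on chromosomes 2, 3, 9, 11, 15 and 16, above the bar of the livers on each.

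The closest group in the series is 3 tumours with the same transgene and a mutant β-catenin, written MYC+Ex3. In one fit over the 6 tumours and the 7 livers, 583 of 11854 genes (4.92%) were called between the tumour genotypes, and the comparison shares the MYC tumours with the one above. None of the 16 genes with the largest rises and falls against liver was called between the tumour genotypes. Levels in this fit are rescaled over 13 libraries. Igf2 was 33.4 to 41.4 in MYC tumours and 36.2 to 42.9 in MYC+Ex3 tumours, a difference of 0.10 ± 0.1 (adjusted p = 0.627). Slc34a2 was at most 0.0298 in MYC and 0.0161 in MYC+Ex3 tumours, a difference of -0.01 ± 0.306 (adjusted p = 0.993). A p above the threshold does not show that the genotypes are alike.

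The β-catenin targets that were low in the MYC tumours did separate the tumour genotypes. Rhbg was 0.0693 to 1.02 in MYC and 13.5 to 17.5 in MYC+Ex3 tumours, and Notum was 0.211 to 1.78 and 13.4 to 16.6. In both cases the MYC tumours were below the livers and the MYC+Ex3 tumours above them, and the differences were 3.61 ± 0.244 and 3.26 ± 0.227 (adjusted p = 1.37e-06 for each). Glul was 12.1 to 25.0 in MYC and 41.5 to 48.1 in MYC+Ex3 tumours, against 34.2 to 44.8 in the livers, a difference of 1.45 ± 0.209 (adjusted p = 0.00140). Axin2, Slc1a2, Lect2 and Tbx3 differed in the same direction, by 2.90, 3.28, 2.52 and 2.17. Igf2r, the receptor that clears IGF-II and is itself imprinted, was 5.80 to 8.72 in MYC and 13.2 to 16 in MYC+Ex3 tumours, a difference of 0.88 ± 0.152 (adjusted p = 0.00460). Grb10 and Afp, which were low in MYC tumour 1, were 30.9 to 32.8 and 32.6 to 37.2 in the MYC+Ex3 tumours, and their differences of 1.64 (adjusted p = 0.0831) and 1.42 (adjusted p = 0.249) were not called.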

How the data were processed

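Bulk RNA-seq of mouse liver and liver tumours (total RNA, strand-specific libraries) was analysed for 3 MYC tumours, 7 4-OHT livers and, for one comparison, 3 MYC+Ex3 tumours. Per the submitters' processing notes, reads were aligned to mm9 with TopHat2 2.0.8, handled with SAMtools and counted with featureCounts 1.4.5-p1, and DESeq2 was used; the order of these steps, the annotation, the treatment of multi-mapped reads and any removal of duplicates are not given in the sources used here. The authors deposited an RPKM table of genes by libraries, and separate columns of log2 fold changes and adjusted p-values for their own comparisons. From the authors' deposited p-values only counts of calls were taken, and their log2 fold changes gave the direction. Every RPKM value corresponds to a whole number of reads within 0.001 (100.0% of values), which gave the relative read totals and the reads per gene, and no count model was run on them. All columns of values were matched to samples, and 0 were left over.

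Each library was divided by its median ratio to the geometric mean over the 14888 genes above 0 in all 10 libraries, and log2(RPKM + 1) was tested with limma 3.58.1 (linear model, empirical Bayes with a trend, two-sided, Benjamini-Hochberg over all tested genes) in R 4.3.3. Genes needed a deposited RPKM of at least 1 in at least 3 libraries. The fit was first tested on simulated data. The tumour genotypes were compared in one fit over 13 libraries. Marker sums were compared with exact permutation tests over libraries in Python 3.11.15 with scipy 1.17.1. Sample numbers only name the samples. The members and gene lists were chosen with earlier results of these data known, so counts over a list are descriptions, and 31 lists and 8 marker lists were used.

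Genes are named by a rule: the 8 largest rises and 8 largest falls among called genes with a group mean of at least 5 and no overlap, up to 4 called members of each list with the largest change, members of short lists, a fixed panel, and the 6 genes with the widest range over the tumours. Hao2, Nop2, Psph, the Y-linked genes and the members named only as not called stand outside it or account for a count. Promoter windows and chromosomes come from RefSeq tables of GRCm38.p6, matched by symbol, while the deposited values rest on mm9, so no coordinate was carried between builds. The alternatives were other rescalings, pseudocounts, filters, subsets of livers, sex as a covariate, library weights and leaving out each library. Some genes of the lists are not reported here by name.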

Additional observations from a re-analysis of the deposited data

Results flagged for a closer look

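In 4 of 121 genes and marker sums checked, 1 of the 7 livers stood apart from the other livers by Dixon's criterion at 95%, and chance alone sets apart about 1 group in 20. Liver 7 had a level of 1.83 rescaled RPKM for Asns where the others had 0.215 to 0.531, and 18.1 for Irf7 where the others had 23.3 to 27.2. Liver 1 had 8.06 for Onecut2 against 10.8 to 12.7 in the others, and liver 6 had 6.92 for Slc20a2 against 7.95 to 8.6.

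Of the 113 genes followed across settings, 14 differed between the tumour genotypes by limma's test of that difference. As MYC+Ex3 minus MYC on the log2 scale, targets of β-catenin and genes of glutamine and ammonia metabolism differed by 3.61 (Rhbg), 3.28 (Slc1a2), 3.26 (Notum), 2.90 (Axin2), 2.52 (Lect2), 2.17 (Tbx3), 1.45 (Glul) and 0.93 (Oat, adjusted p = 0.0248). The difference was 1.33 ± 0.310 for F11 (adjusted p = 0.0277), 1.21 ± 0.268 for Gadd45b (adjusted p = 0.0213), 0.88 for Igf2r and 0.51 ± 0.0964 for Aars (adjusted p = 0.00889). F11 was 1.76 to 6.14 in MYC and 5.87 to 13.3 in MYC+Ex3 tumours, against 14.1 to 19 in the livers. Lower in the MYC+Ex3 tumours were Saa1, by -1.98 ± 0.271 (adjusted p = 9.34e-04), with 1.20 to 1.53 against 6.06 to 11.0 in the MYC tumours, and Ifit3, by -1.02 ± 0.221 (adjusted p = 0.0183). Aars was 7.82 to 8.70 in MYC tumours, 11.7 to 12.7 in MYC+Ex3 tumours and 13.7 to 17.0 in the livers. The MYC+Ex3 tumours were not tested against the livers.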

How the results depend on the processing

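Of the 99 called genes among 113 followed across settings, 84 were called under every one of 12 other settings and 10 left-out libraries that tested them, and 0 changed direction. A 2-fold minimum, counted apart, kept 78 of the 99. The other 15 lost the call at least once: Afp, Alb, Ccnd1, Cdkn1c, Ctgf, Grb10, Hao2, Inmt, Max, Mycl, Odc1, Pigr, Slc20a1, Slc20a2 and Vsig4. Of 5374 calls, 3860 (without tumour 3) to 5697 (without tumour 1) were made when a library was left out, with 2012 to 2824 rises and 1848 to 2942 falls. The count was 3026 (1420 rises, 1606 falls) with a filter at an RPKM of 5, where 5949 genes were tested, 2916 (1659 and 1257) with the 3 S15 livers alone, 3362 (1835 and 1527) with a weight per group and 1173 (565 and 608) with a 2-fold minimum. On the deposited RPKM 1520 genes fell.

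Between the tumour genotypes 50 genes were called in a fit of the 6 tumours alone, and 225 to 957 when a tumour was left out of the larger fit, the highest without MYC tumour 3. Between S15 and S14 livers the count of 123 ran from 18 to 174. Several genes without a call changed sign. Myc was -0.02 with upper-quartile rescaling and -0.09 to 0.10 with a library left out. Ctnnb1, Cyr61 and Wwtr1 were 0.14, 0.05 and 0.04 on the deposited RPKM, and Cyr61 was 0.17 with S15 livers. Yap1 was -0.02 with upper-quartile rescaling and in males alone, -0.01 with sex as a covariate and -0.05 with quality weights. With a library left out, the values ran from -0.20 to 0.02 for Ctnnb1, -0.19 to 0.06 for Cyr61, -0.02 to 0.11 for Yap1 and -0.59 to 0.31 for Wwtr1. The difference of summed stellate markers was 0.0196 on the deposited RPKM and -11.9 to 0.658 with a library left out, that of cholangiocyte markers -6.14 to 9, and that of erythroid markers -13.4 to 16.6. The cause of these shifts was not tested. No paired analysis was possible because the titles carry only sample numbers and the groups share none. Values near the highest RPKM of a library limit the size of a change, and with 3 tumours the spread between tumours limits every count.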

Other observations

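The 7 livers fall into 2 series by title number, S14 (livers 1 to 4) and S15 (livers 5 to 7), and 123 of 10757 genes (1.14%) were called between them by limma, of which 60 were also called between tumours and livers. Genes of the circadian clock varied among the livers. Over 17 tested clock genes the median difference from the liver mean ran from -0.74 to 0.66 among single livers and was -0.32, -0.50 and -0.57 in the tumours. Per2, a clock repressor, had 0.686 to 1.58 rescaled RPKM in livers 1 to 4 and 6.09 to 8.41 in livers 5 to 7, while Arntl, which encodes the clock activator BMAL1, had 1.37 to 3.55 and 0.160 to 0.707. In the 3 tumours Per2 had 0.806, 1.53 and 1.55 and Arntl 1.24, 1.14 and 1.37. Between the groups 3 of the 17 genes fell in the tumours (17.6%, against 22.2% of all tested genes) and none rose. Against the S14 livers alone 4 fell and 1 rose, and against the S15 livers alone 7 fell (41.2%, against 11.4%) and 1 rose. The hour at which tissue was taken is not given in the sources used here.

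Between male and female livers 55 genes (0.511%) were called. Hsd3b5, a male-biased steroid enzyme, had 9.12 to 23.4 in 3 of the 4 male livers and 0.251 in the other, liver 7, against at most 0.14 in the female livers and 0.356, 0.0296 and 0.0578 in the tumours, all male by their Y-linked genes. Cdh1, the epithelial adhesion molecule E-cadherin, had 0.0693 in tumour 1 but 12.2 and 10.2 in tumours 2 and 3, against 6.4 to 10.1 in the livers, so tumour 1 was far below every other library while the comparison of the groups was not called (change -0.78, adjusted p = 0.304).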
